A study of Homo sapiens with 4 samples.

Results

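Of 29302 regions measured by ChIP-seq in T98G cells, 1258 lay at promoters of long non-coding RNA (lncRNA) genes. They were all regions that the authors annotated as promoter, that is within 3 kb of the nearest annotated transcript start, and whose gene was typed as lncRNA. They were assigned to 1165 of the 17345 genes with a region. T98G is an established human glioblastoma cell line. The compared cells were T98G that overexpressed LGP2 (column name T98-pCW-LGP2) and T98G with the vector (T98-pCW-vector). Both were grown in DMEM with serum and fixed with formaldehyde before the chromatin was collected. LGP2 is an RNA helicase of the RIG-I family that binds double-stranded RNA in the cytoplasm. The series title gives the role of LGP2 in glioma as its subject. Each condition had 1 ChIP library and 1 input library, and the table held values of the 2 ChIP libraries. The study lists the vector pair with its data for crotonylated lysine, but the sources used here do not give the antibody of the LGP2 library. Any difference therefore stands for 2 libraries without a replicate check, and condition and library cannot be told apart.

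lncRNAs are transcripts that are processed much like messenger RNA but encode no known protein. Many start close to, or on the opposite strand of, coding genes, and some act on neighbouring genes or on chromatin, while for most no function is known. Their promoters often contain fewer CpG dinucleotides than those of coding genes. Crotonylation of histone lysines is a mark that has been described at active promoters and enhancers.

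The symbol of 347 of the 1165 genes (29.8%) occurred in RefSeq (GRCh38.p14), and each of these 347 was typed as lncRNA there as well. The build named by the labels is mm10, of the mouse, whereas the positions were human. Of 381 member transcripts whose symbol was in RefSeq, 92.9% overlapped the gene of that symbol in GRCh38, so coordinates are read as GRCh38. RefSeq start windows, which run from 250 bases before to 50 bases after a start, were overlapped by 47 of 1194 regions (3.94%, 95% interval 2.91 to 5.2%). They comprised 27 regions called only with LGP2 and 20 called only with the vector. Only 14 of the 47 overlapped the window of their own gene, by symbol or synonym. The share of coding promoter regions over a RefSeq start window was 3.57% (2.97 to 4.27%), so most regions of either gene type overlapped none.

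Sequences of 6 such windows are shown to let the reader see what kind of DNA the regions covered. LEMD1-DT and HOXA-AS2 fall under the rule for named genes given with the methods. The others were chosen after their values were seen, for the long overlap with the region, among windows of the region's own gene by symbol or synonym. Regions with a similar or longer overlap with a window under another symbol, from both call sets, are not shown. LINC01228 was covered over all 300 bases by a region with 7 LGP2 and 3 vector reads (chr16:79827101-79827400, minus strand), and LINC02848 over 281 bases by a region with 5 LGP2 reads and 1 vector read (chr7:63900590-63900889, plus strand). LINC02085, which RefSeq calls RDUR, for RIG-I dependent antiviral response regulator RNA, was covered over 281 bases by a region with 4 LGP2 reads and 1 vector read (chr3:101940609-101940908, plus strand). LEMD1-DT, a divergent transcript, was covered over 43 bases by a region with 7 LGP2 reads and 0 vector reads (chr1:205455808-205456107, plus strand). The remaining 2 windows, of HOXA-AS2 and LINC01280, belonged to regions called only with the vector. The HOXA-AS2 region had 2 LGP2 and 6 vector reads and covered 287 bases of the start window of the coding gene HOXA3 (chr7:27122978-27123277, minus strand). The LINC01280 region had 1 LGP2 read and 7 vector reads and covered 245 bases (chr2:216606889-216607188, minus strand). The windows are from RefSeq, build GRCh38.p14, written 5′ to 3′ on the strand of the gene, and capitals mark the bases inside the region.
LEMD1-DT: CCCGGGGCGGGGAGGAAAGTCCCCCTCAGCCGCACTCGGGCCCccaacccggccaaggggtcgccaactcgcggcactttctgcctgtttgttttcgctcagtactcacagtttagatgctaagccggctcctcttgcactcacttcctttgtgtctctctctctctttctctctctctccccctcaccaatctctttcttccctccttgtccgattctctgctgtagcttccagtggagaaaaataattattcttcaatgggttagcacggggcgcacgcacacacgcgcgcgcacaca
LINC01228: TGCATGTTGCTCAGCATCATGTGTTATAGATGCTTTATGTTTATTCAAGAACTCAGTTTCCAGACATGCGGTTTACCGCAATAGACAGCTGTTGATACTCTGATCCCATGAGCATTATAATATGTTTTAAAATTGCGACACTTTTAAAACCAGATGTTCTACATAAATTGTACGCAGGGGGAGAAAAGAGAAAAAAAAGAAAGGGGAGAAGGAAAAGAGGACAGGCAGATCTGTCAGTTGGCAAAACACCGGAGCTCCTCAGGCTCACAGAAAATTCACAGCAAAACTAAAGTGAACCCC
LINC02848: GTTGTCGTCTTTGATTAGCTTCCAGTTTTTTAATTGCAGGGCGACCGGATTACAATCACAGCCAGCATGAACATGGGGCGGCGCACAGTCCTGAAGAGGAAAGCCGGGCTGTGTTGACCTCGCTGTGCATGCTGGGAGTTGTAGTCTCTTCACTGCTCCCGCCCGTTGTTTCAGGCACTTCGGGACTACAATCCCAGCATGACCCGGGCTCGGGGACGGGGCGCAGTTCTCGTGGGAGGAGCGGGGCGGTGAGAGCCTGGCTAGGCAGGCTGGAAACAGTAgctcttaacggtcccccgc
LINC02085 (RDUR): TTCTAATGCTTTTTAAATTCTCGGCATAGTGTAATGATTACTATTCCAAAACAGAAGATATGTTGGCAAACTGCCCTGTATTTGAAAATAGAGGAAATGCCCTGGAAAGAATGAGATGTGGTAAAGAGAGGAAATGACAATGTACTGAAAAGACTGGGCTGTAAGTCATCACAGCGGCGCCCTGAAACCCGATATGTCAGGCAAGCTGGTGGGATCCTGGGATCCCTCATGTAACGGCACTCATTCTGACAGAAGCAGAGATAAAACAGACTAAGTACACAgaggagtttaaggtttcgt
HOXA-AS2 (window of HOXA3): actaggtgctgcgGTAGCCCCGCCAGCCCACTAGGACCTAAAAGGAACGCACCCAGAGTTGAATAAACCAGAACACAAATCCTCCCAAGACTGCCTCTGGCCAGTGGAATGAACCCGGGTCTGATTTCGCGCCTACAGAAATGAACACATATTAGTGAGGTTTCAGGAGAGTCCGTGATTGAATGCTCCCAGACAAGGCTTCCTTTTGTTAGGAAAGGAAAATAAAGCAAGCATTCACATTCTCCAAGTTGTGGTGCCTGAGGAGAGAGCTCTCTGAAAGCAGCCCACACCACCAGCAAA
LINC01280: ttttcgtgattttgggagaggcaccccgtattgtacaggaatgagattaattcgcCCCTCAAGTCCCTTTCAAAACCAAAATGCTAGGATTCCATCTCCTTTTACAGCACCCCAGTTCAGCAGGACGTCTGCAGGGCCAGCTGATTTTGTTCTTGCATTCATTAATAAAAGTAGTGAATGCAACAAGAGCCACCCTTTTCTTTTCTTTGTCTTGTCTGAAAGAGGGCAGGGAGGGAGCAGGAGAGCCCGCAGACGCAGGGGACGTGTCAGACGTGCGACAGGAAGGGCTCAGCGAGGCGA

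The base composition of these 6 windows differed widely. The LINC02848 window was 59% G or C with 19 CpG dinucleotides, and the LEMD1-DT window was 56.7% G or C with 18. The LINC01228 window was 40.3% G or C with 5 CpG, the LINC02085 window 42.3% with 6, and the HOXA3 and LINC01280 windows were each 50% with 7 and 11 CpG. The windows were searched on both strands for GGGCGG, the core of a GC box, for CCAAT and for TATAAA, none of which contains another. GGGCGG was found in the LEMD1-DT and LINC02848 windows, and CCAAT in the LEMD1-DT window. TATAAA was found in none of the 6. Of all 27305 RefSeq windows searched, 44.6% held GGGCGG, 35.7% held CCAAT and 12% held TATAAA. Among windows of lncRNA genes alone these shares were 25.4%, 34.8% and 15.2%, and among those of coding genes 58.5%, 36.4% and 9.63%. RefSeq windows were matched to 238 of the 1165 genes, which is under 80%, so a comparison of base composition between the genes of both call sets is void and none is given.

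Region calls were nearly all private to 1 library, at lncRNA promoters as in the whole series. Of the 1258 regions, 688 had a call in the LGP2 library alone, 566 in the vector library alone, and 4 in both. Calls in both libraries numbered 79 among all 29302 regions and 8 among the 3419 coding promoter regions. The LGP2 library held 54.9% of the regions called in 1 library (688 of 1254, exact Clopper-Pearson 95% interval 52.1 to 57.6%). Over all regions of the series this share was 55% (54.4 to 55.6%). Intervals cover counting error only, and reads from amplified libraries are not independent molecules.

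The share at lncRNA promoters was lower than at promoters of coding genes. Of 3411 coding promoter regions called in 1 library, 61.2% were LGP2-only (59.6 to 62.9%). The odds of an LGP2-only call at lncRNA promoters relative to coding promoters were 0.769 (95% interval 0.675 to 0.877). Within chromosomes, a comparison added after the data had been seen, the odds ratio was 0.771 (0.674 to 0.882). Of the regions of lncRNA genes outside promoters, 54.5% were LGP2-only (53.4 to 55.7%). The odds ratio of lncRNA promoters relative to these was 1.01 (0.899 to 1.14), and 0.968 (0.857 to 1.09) within chromosomes, so both intervals included equal odds. How the input libraries entered the calling of either ChIP library is not stated, so the balance of calls is read between gene types and not between conditions.

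The difference between gene types was seen close to transcript starts. Within 1 kb of a start, 55.4% of lncRNA regions were LGP2-only (51.2 to 59.6%; 308 LGP2-only and 248 vector-only), against 62.3% of coding regions (59.9 to 64.7%). At 1 to 2 kb the shares were 54.6% for lncRNA genes and 62.6% for coding genes, and at 2 to 3 kb they were 54.2% and 57.5%. From 3 to 10 kb, outside the promoter class, the shares were 57.4% for lncRNA genes and 56.6% for coding genes, within each other's interval, and beyond 50 kb the shares were 52.7% and 52.2%. The LGP2-only share of lncRNA regions thus stayed near that of all regions at every distance up to 3 kb.

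**Figure D1:**
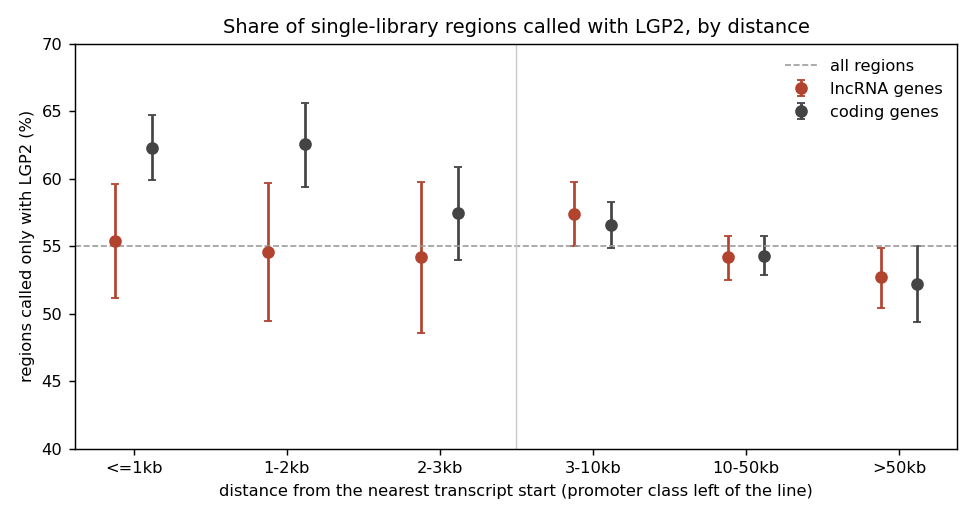
Share of regions called only with LGP2 among regions called in 1 library (y axis, %) by distance from the nearest transcript start (x axis), for lncRNA genes (red) and coding genes (dark grey). Points are shares, bars are exact 95% intervals of counting error, the dashed line is the share over all regions (55%), and the bins left of the vertical line form the promoter class. Within 1 kb the lncRNA point is at 55.4% and the coding point at 62.3%.

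Promoters made up a similar part of the lncRNA regions in both call sets. They were 15% of the LGP2-only regions of lncRNA genes (688 of 4600, 13.9 to 16%) and 14.8% of the vector-only regions (566 of 3829, 13.7 to 15.9%). For coding genes the promoter share was 29.3% of the LGP2-only regions (28.3 to 30.4%) and 24.2% of the vector-only regions (23.1 to 25.4%). Within the promoter class, 44.8% of LGP2-only lncRNA regions lay within 1 kb of a start (41 to 48.6%), against 43.8% of vector-only ones (39.7 to 48%).

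Midpoints crowded just downstream of the start. Counted in steps of 500 bp from 3 kb upstream to the start, 80, 83, 106, 78, 106 and 116 regions had their midpoint there. From the start to 3 kb downstream the counts were 161, 107, 88, 109, 84 and 85. The fullest step was the first 500 bp downstream, with 161 regions, of which 82 were LGP2-only and 79 vector-only. It held 12.8% of lncRNA promoter regions and 13.2% of coding ones. Because each region is assigned to its nearest transcript, short distances are favoured in any set of positions. In all, 598 midpoints lay upstream and 660 downstream. A transcript start of the file lay inside 105 regions (8.35%, 6.88 to 10%), 59 of them LGP2-only and 46 vector-only, whereas 10.3% of coding promoter regions (9.32 to 11.4%) held one.

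**Figure D2:**
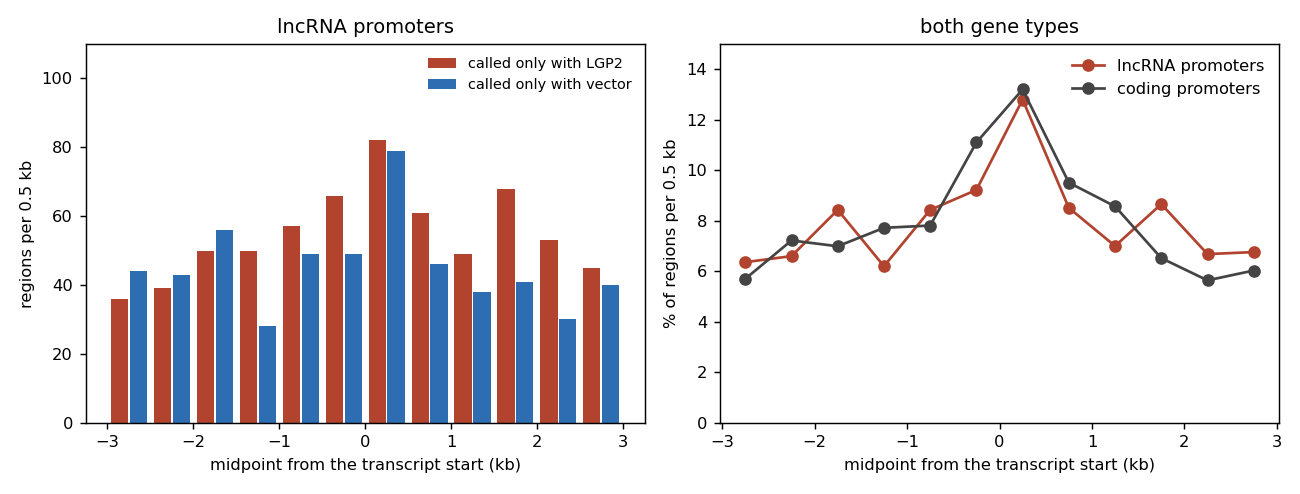
Position of region midpoints from the transcript start (x axis, kb; negative is upstream). Left, number of lncRNA promoter regions per 0.5 kb called only with LGP2 (red) or only with the vector (blue); right, percent of lncRNA promoter regions (red) and coding promoter regions (dark grey) per 0.5 kb. The step just downstream of the start is the highest in both gene types, with 12.8% of lncRNA and 13.2% of coding regions.

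Reads were few at every region, and depth limited what single regions can show. A read count here is the number of reads within a window around the middle of a region, and the width of this window, 2 kb, was inferred. A typical region had 5 reads in both libraries together (median). At the 688 LGP2-only regions the LGP2 library had a median of 3 reads (2 to 9) and the vector library a median of 1 (0 to 7). At the 566 vector-only regions the LGP2 library had a median of 1 read (0 to 6) and the vector library a median of 4 (2 to 11). The ranges of called and uncalled libraries overlapped. No vector read was found at 150 LGP2-only regions (21.8%, 18.8 to 25.1%), and no LGP2 read at 177 vector-only regions (31.3%, 27.5 to 35.3%). Over all regions of the series these shares were similar, at 21.7% and 33.6%. At 42 LGP2-only regions (6.1%, all regions 6.78%) the vector library had more reads than the LGP2 library. At 12 vector-only regions (2.12%, all regions 2.43%) the LGP2 library had more. A call in 1 library thus did not always mean more reads there. Summed over the 1258 windows there were 3245 LGP2 and 3380 vector reads, and over all 29302 windows 73695 LGP2 and 77095 vector reads. The total depth of the libraries is unknown.

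**Figure D3:**
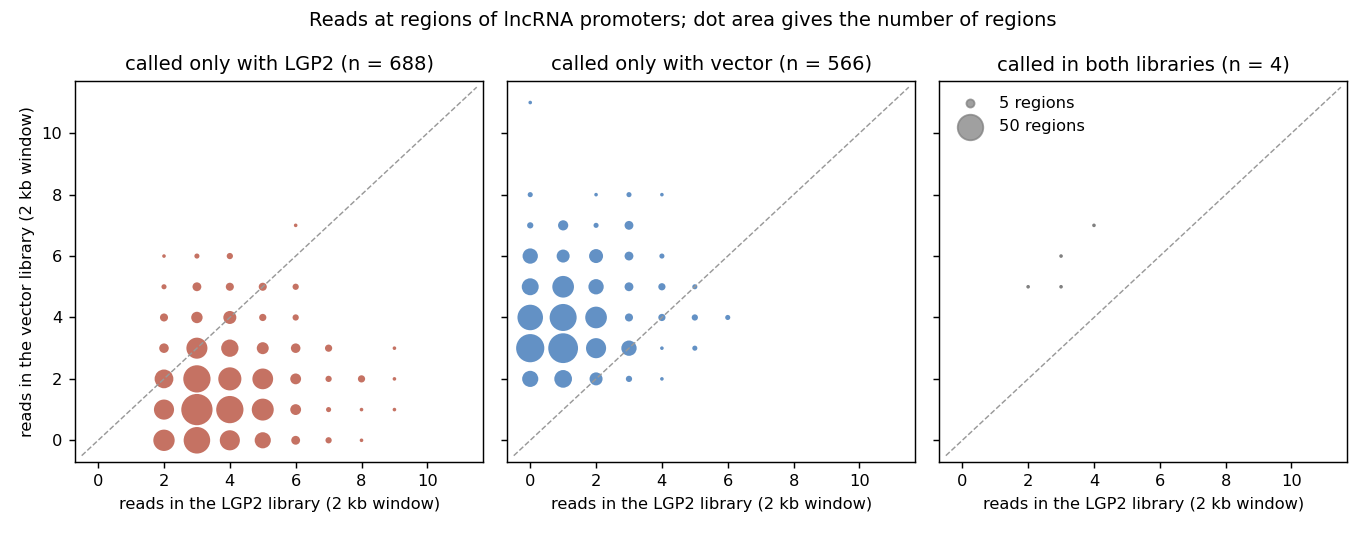
Reads of each lncRNA promoter region in the LGP2 library (x axis, reads in the 2 kb window) and in the vector library (y axis, same unit), by call set. Dot area gives the number of regions with that pair of reads, and the dashed line marks equal reads. LGP2-only regions (688) lie mostly below the line and vector-only regions (566) mostly above it, with 42 and 12 on the other side, and the 4 shared regions are all above it.

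The ratio of (LGP2 reads + 1) to (vector reads + 1) was 2 or more at 387 lncRNA promoter regions (30.8%, 28.2 to 33.4%). Over all regions this share was 29.5%. LGP2 was at least 2-fold lower at 406 regions (32.3%, 29.7 to 34.9%), where all regions gave 32.0%. Both shares were close to the background of the series, so neither is a result about lncRNA promoters. Among coding promoters 32% of regions were at least 2-fold higher and 27.5% at least 2-fold lower (26 to 29%). Many of these ratios rest on very few reads: of the 387 higher regions, 150 had no vector read and 164 had no more than 3 reads in either library. Of the 406 lower regions, 177 had no LGP2 read and 149 had no more than 3 reads in either library. The median log2 ratio was 0 for lncRNA promoters, 0.26 for coding promoters and 0 for all regions. With regions at 0 reads in a library set to the bound that 3 reads there would give, all of these medians were 0. Among the regions past 2-fold, 48.8% were higher with LGP2, and 48% over all regions. After another scaling, by the reads of each library at the regions that only the other had called, the median of all regions shifted by 0.48 log2 units. The higher share then was 67.1% at lncRNA promoters and 66.2% over all regions. The direction of the split thus depended on the scaling, in lncRNA promoters as in all regions.

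The 4 regions called in both libraries all had fewer LGP2 reads. How many of the 79 such regions of the series did so was not computed, so the direction is not read as a result about lncRNA promoters. ITGA9-AS1, antisense to the integrin gene ITGA9, had 4 LGP2 reads and 7 vector reads. AC103957.2 had 3 LGP2 and 6 vector reads, AC066580.1 had 3 and 5, and AC025766.1, inside the coding gene KIAA0825, had 2 and 5. The exact Poisson 95% intervals of the ITGA9-AS1 reads, 1.09 to 10.2 with LGP2 and 2.81 to 14.4 with the vector, overlapped widely, and those of the other regions did as well.

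The regions with the highest ratio had 6 to 8 LGP2 reads and no vector read. LSINCT5, a long stress-induced non-coding transcript described in cancer cells, had 8 LGP2 reads and 0 vector reads in a region 2.4 kb downstream of a start (chr5:2715016-2715288). The exact Poisson intervals of its reads, 3.45 to 15.8 with LGP2 and 0 to 3.69 with the vector, overlapped. AL034550.1, antisense to NOL4L, LEMD1-DT and STARD7-AS1, antisense to the lipid transfer gene STARD7, each had 7 LGP2 reads and 0 vector reads, whose intervals (2.81 to 14.4 and 0 to 3.69) overlapped as well. AL034550.1 had another region with 7 LGP2 reads and 1 vector read on the other side of a gap of 976 bp. Their windows overlap and share reads. The remaining 6 of the 10 had 6 LGP2 reads and 0 vector reads each, namely AC005871.2, AC076968.2, AC092803.2, AC093520.1, AL033397.1 and LINC01933.

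The regions with the lowest ratio reached higher read numbers. AC003991.2, inside the gene of the calcium-binding protein SRI, had 0 LGP2 reads and 11 vector reads (chr7:88214765-88215331). This was the most reads of any lncRNA promoter region in either library. Its intervals, 0 to 3.69 reads with LGP2 and 5.49 to 19.7 with the vector, did not overlap, but the region was taken as the lowest ratio of 1258. AC102941.2 and AC126768.1 had 0 LGP2 reads and 8 vector reads each, with intervals (0 to 3.69 and 3.45 to 15.8) that overlapped. The AC126768.1 region lay 33 bp upstream of a transcript start, and another region of the same gene, across a gap of 1516 bp, had 8 LGP2 reads and 2 vector reads and was called only with LGP2. The gene thus held neighbouring regions with opposite calls. AC124854.1, AL031727.2 and LINC01710 had 0 LGP2 reads and 7 vector reads each. The last 4 of the 10 (AC018680.1, AC074011.1, AC087235.2 and AC087286.1) had 0 LGP2 and 6 vector reads and were taken in alphabetical order from 18 regions with these values. Regions with 6 LGP2 reads and 0 vector reads numbered 6.

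The 5 regions with the most reads in all showed no common direction. LINC00051 had 6 LGP2 and 7 vector reads although it was called only with LGP2. AC011498.6 had 4 LGP2 and 8 vector reads, and AC003991.2 had 0 and 11. AC022613.1, antisense to the tight junction gene TJP1, had 9 LGP2 and 3 vector reads. AC004847.1, which overlaps the myosin gene MYO1G, had 9 LGP2 and 2 vector reads and was the widest region at 1108 bp. The next widest were UBOX5-AS1 (990 bp, 8 LGP2 and 2 vector reads), AL590369.1 (868 bp, 3 and 7), AF131215.3 (852 bp, 5 and 0) and LINC01938 (837 bp, 1 and 7). The wide regions thus came from both libraries, while the median width was 306 bp for LGP2-only and 315 bp for vector-only regions.

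More than 1 region was found at 84 of the 1165 genes. At 78 genes there were 2 regions: 26 genes had both called only with LGP2, 18 had both called only with the vector, and 34 had 1 of each. In all, 39 of the 84 genes held calls of both libraries, so single-library calls at 1 gene could point in opposite directions. The same share was not computed for other genes, so it is not read as a result about lncRNA genes. The windows of 25 pairs of regions overlapped, and these pairs share reads.

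SNHG14 held the most regions, 6 over 165778 bp of chromosome 15. It is the imprinted transcript of the Prader-Willi region that hosts the SNORD116 and SNORD115 clusters of small nucleolar RNAs and runs antisense to UBE3A. From the lowest to the highest position its regions had 6, 4, 3, 5, 5 and 3 LGP2 reads and 4, 1, 7, 3, 3 and 2 vector reads. No SNHG14 region was at 0 in either library, and 5 of the 6 had more LGP2 reads. The regions with 4 and 7 vector reads were vector-only, the other 4 LGP2-only. The region with 6 LGP2 and 4 vector reads thus went against its call. The first 3 lay nearest to SNORD116 genes and the last 3 nearest to SNORD115 genes of RefSeq, at gaps of 422 to 3984 bp.

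The other genes with the most regions had 3 each. At AL139349.1, inside the peptidase gene NPEPL1, all 3 regions were called only with the vector, with 2, 0 and 1 LGP2 reads and 7, 6 and 5 vector reads. All 3 lay on chromosome 20, where most calls were LGP2-only. They spanned 2394 bp, and the windows of neighbouring regions overlap. At AC103855.2 the regions had 1, 6 and 7 LGP2 reads and 7, 3 and 2 vector reads, so that the first was vector-only and the others LGP2-only. ITGA9-AS1 had 4, 2 and 1 LGP2 reads and 7, 4 and 7 vector reads, with fewer LGP2 reads in each of its regions. The calls of ITGA9-AS1 were nonetheless of all 3 kinds. AP001630.1, antisense to the homeobox gene PKNOX1, had 2, 2 and 3 LGP2 reads and 1, 6 and 2 vector reads.

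Most of the genes are known only by a clone name. Such genes accounted for 834 regions, of which 56.8% of those called in 1 library were LGP2-only (53.4 to 60.2%). LINC genes, which are intergenic by name, accounted for 110 LGP2-only regions and 116 vector-only ones (48.7%, 42 to 55.4%). At antisense genes, 64 regions were LGP2-only and 54 vector-only (54.2%, 44.8 to 63.4%). Host genes of small RNAs gave 10 LGP2-only regions and 6 vector-only ones, and divergent transcripts gave 6 and 2. Of the 9 regions at intronic transcripts, whose symbols end in IT and a number, 1 was LGP2-only and 8 vector-only (11.1%, 0.281 to 48.2%; all regions 55%). The interval counts the DNM3-IT1 regions, whose windows overlap, as separate, and the class was singled out after its values had been seen. In all regions of such genes, these 9 included, 25 were LGP2-only and 42 vector-only.

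The regions at intronic transcripts are named here although the rule for named genes did not select them, after their values had been seen. HECW1-IT1 had 0 LGP2 and 6 vector reads 13 bp from a start. MAST4-IT1 had 1 LGP2 and 6 vector reads, and RASA3-IT1 had 1 and 5. DNM3-IT1, which lies within DNM3, had regions with 1 and 2 LGP2 reads and 6 and 6 vector reads, in windows that overlap. HS1BP3-IT1 and RPS6KA2-IT1 had 1 LGP2 and 4 vector reads each, and DSCAM-IT1 had 2 and 3. DAPK1-IT1, within the kinase gene DAPK1, was the exception with 5 LGP2 and 0 vector reads. Vector reads exceeded LGP2 reads at the 8 vector-only regions of the 9, which largely restates their call. The ratio of DSCAM-IT1 turned to 0.07 (log2) after scaling by reads at regions that only the other library had called.

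**Figure D4:**
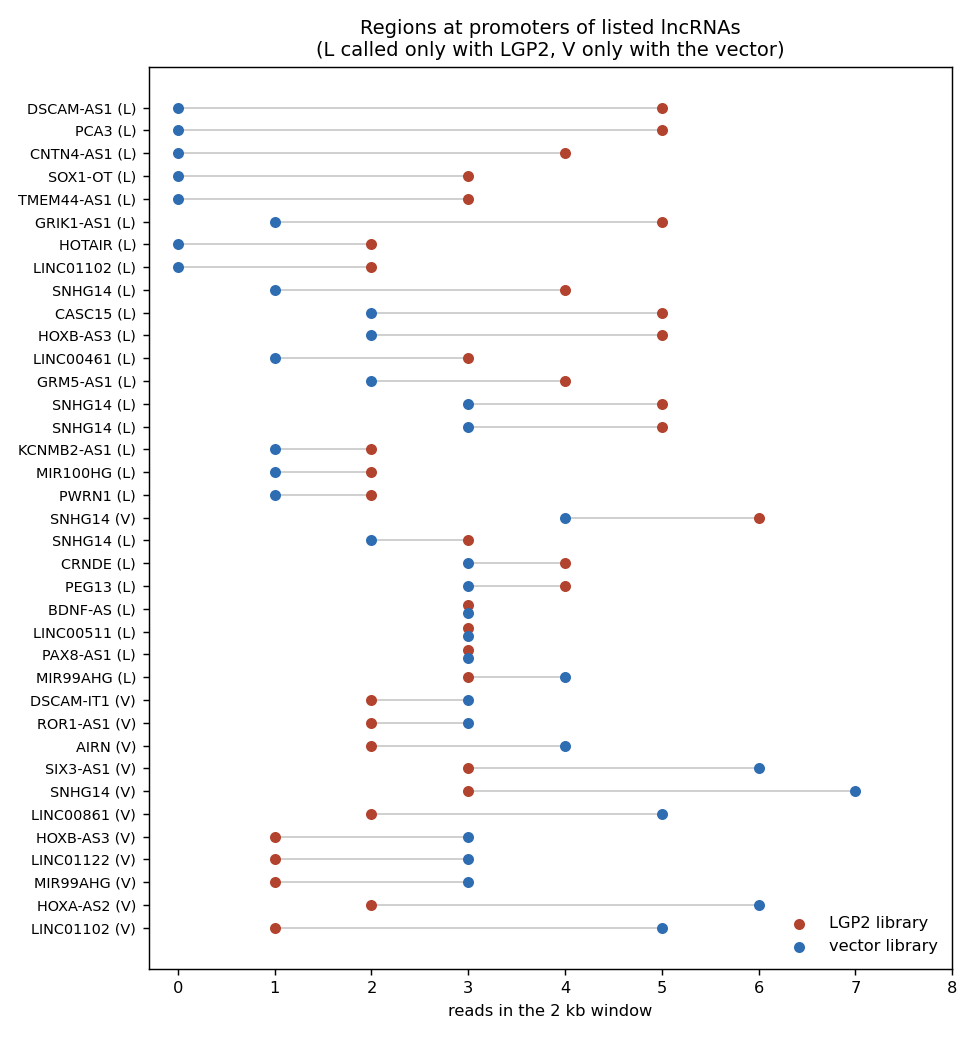
Reads in the 2 kb window (x axis) of each region at the promoter of a listed lncRNA (y axis), in the LGP2 library (red) and the vector library (blue), ordered by the log2 ratio. L marks regions called only with LGP2 and V those called only with the vector. DSCAM-AS1 and PCA3 at the top have 5 LGP2 reads and 0 vector reads, and LINC01102 at the bottom has 1 LGP2 read and 5 vector reads.

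Known lncRNAs were looked up through 4 gene lists. Of 79 non-coding genes on a list for glioma and cancer, 8 had a promoter region, with 6 regions LGP2-only and 2 vector-only. PCA3, a prostate cancer marker, had 5 LGP2 and 0 vector reads. CASC15, at a neuroblastoma susceptibility locus, had 5 LGP2 and 2 vector reads, and the brain-enriched LINC00461 had 3 LGP2 reads and 1 vector read. CRNDE, whose expression is raised in glioma, had 4 LGP2 and 3 vector reads, LINC00511 had 3 and 3, and HOTAIR, a transcript of the HOXC cluster described as a scaffold for repressive chromatin complexes, had 2 and 0. The vector-only regions were those of HOXA-AS2 in the HOXA cluster, with 2 LGP2 and 6 vector reads, and of ROR1-AS1, antisense to the receptor gene ROR1, with 2 and 3. The LGP2-only share of this list (75%, 34.9 to 96.8%) had an interval that includes the 55% of all regions. By the ratio with 1 read added, 4 of the 8 regions (50%) were at least 2-fold higher, against 29.5% of all regions, but HOTAIR and LINC00461 among them had no more than 3 reads in either library. At least 2-fold lower was 1 of the 8 (12.5%, against 32.0% of all regions). The median log2 ratio was 0.66, against 0 over all regions. With PCA3 and HOTAIR, the regions without a vector read, at their bound of 3 reads the median was 0.16.

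Lists nearer to the function of LGP2 gave few regions. Of 46 non-coding genes linked to interferon, RNA sensing and inflammation, 3 had a promoter region. The share of all lncRNA genes with such a region was not computed. LINC02085 (RDUR), whose region had 4 LGP2 reads and 1 vector read, was not on the list and is not counted here. TMEM44-AS1 had 3 LGP2 and 0 vector reads, HOTAIR had 2 and 0, and LINC00861 had 2 and 5. With 3 reads or fewer in both libraries at TMEM44-AS1 and HOTAIR, their ratios are not interpreted. The median log2 ratio of the 3 was 1.58, which is the ratio of HOTAIR itself, but 0 with the regions without a vector read at their bound.

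Imprinted lncRNAs had 9 promoter regions in 4 genes, 6 of them LGP2-only and 3 vector-only (66.7%, 29.9 to 92.5%, which includes the 55% of all regions), and 6 of the 9 were those of SNHG14. PEG13, which lies within TRAPPC9, had 4 LGP2 and 3 vector reads. AIRN, whose mouse counterpart silences the receptor gene Igf2r on the paternal allele, had 2 LGP2 and 4 vector reads. At least 2-fold higher was 1 region (11.1%, against 29.5% of all regions) and at least 2-fold lower was 1 (11.1%, against 32.0%). The median log2 ratio was 0.49, against 0 over all regions.

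Neural and developmental lncRNAs had 22 promoter regions in 19 of 76 genes, with 15 LGP2-only and 7 vector-only (68.2%, 45.1 to 86.1%). The interval includes the share of all regions. By the ratio with 1 read added, 9 regions (40.9%, against 29.5% of all regions) were at least 2-fold higher and 5 (22.7%, against 32.0%) at least 2-fold lower. Of these, 4 of the 9 and 3 of the 5 had no more than 3 reads in either library. The median log2 ratio was 0.58, or 0 with regions without a vector read at their bound, against 0 over all regions. GRIK1-AS1, antisense to a glutamate receptor subunit gene, had 5 LGP2 reads and 1 vector read. GRM5-AS1, antisense to the metabotropic receptor gene GRM5, had 4 LGP2 and 2 vector reads, and BDNF-AS, which opposes the neurotrophin gene BDNF, had 3 and 3. SIX3-AS1, beside the forebrain transcription factor gene SIX3, had 3 LGP2 and 6 vector reads. HOXB-AS3 had regions of both call sets, with 1 and 5 LGP2 reads and 3 and 2 vector reads. MIR99AHG, host gene of the miR-99a cluster, had 3 LGP2 and 4 vector reads at a region called only with LGP2. CASC15, HOXA-AS2, HOTAIR and LINC00461 stand on this list as well, so its counts share these regions with those of the glioma and cancer list. The exact Poisson intervals of both libraries overlapped at GRIK1-AS1, GRM5-AS1 and SIX3-AS1.

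Coding genes overlapped many of the regions, but the same share over all regions was not computed. A coding gene body of RefSeq held 439 of the 1258 regions (34.9%, 32.3 to 37.6%). Of those called in 1 library, 57.7% were LGP2-only (52.9 to 62.3%), against 53.4% of regions outside coding genes (49.9 to 56.8%). Fewer lay near a coding start of RefSeq: 21 of 1194 regions (1.76%, 1.09 to 2.68%) within 1 kb and 76 (6.37%, 5.05 to 7.9%) within 3 kb. Over all regions these shares were 1.35% (1.22 to 1.5%) and 3.86% (3.63 to 4.09%). Of the coding promoter regions, which lie within 3 kb of a start of the file, only 10.3% and 28.7% were counted as near a RefSeq coding start. The RefSeq starts thus miss many starts of the file, and the shares at lncRNA promoters are likely too low as well. Near a coding start within 3 kb, 52% of regions were LGP2-only (40.2 to 63.7%), against 55.1% of the others (52.1 to 58.1%). The window of a coding start was overlapped by 6 regions, among them AL021395.1 at PTPRT with 5 LGP2 and 2 vector reads and AP002748.4 at DPP3 with 3 and 0.

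Chromosomes differed in the balance of calls, in lncRNA promoters as in all regions. On chromosome 20, 36 lncRNA promoter regions were LGP2-only and 12 vector-only (75%, 60.4 to 86.4%), where all regions gave 76.9% and coding promoters 84.3%. On chromosome 14, 14 were LGP2-only and 27 vector-only (34.1%, 20.1 to 50.6%), where all regions gave 47.8%. Chromosome 12 had 22 LGP2-only and 34 vector-only regions (39.3%, 26.5 to 53.2%), and all its regions gave 53.6%. This was 1 of the 22 chromosomes with 20 or more lncRNA promoter regions, and the only one on which the share of all regions lay outside the interval. The coding share was above the lncRNA share on 16 of the 22. Without chromosome 20, 54.1% of lncRNA promoter regions were LGP2-only.

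**Figure D5:**
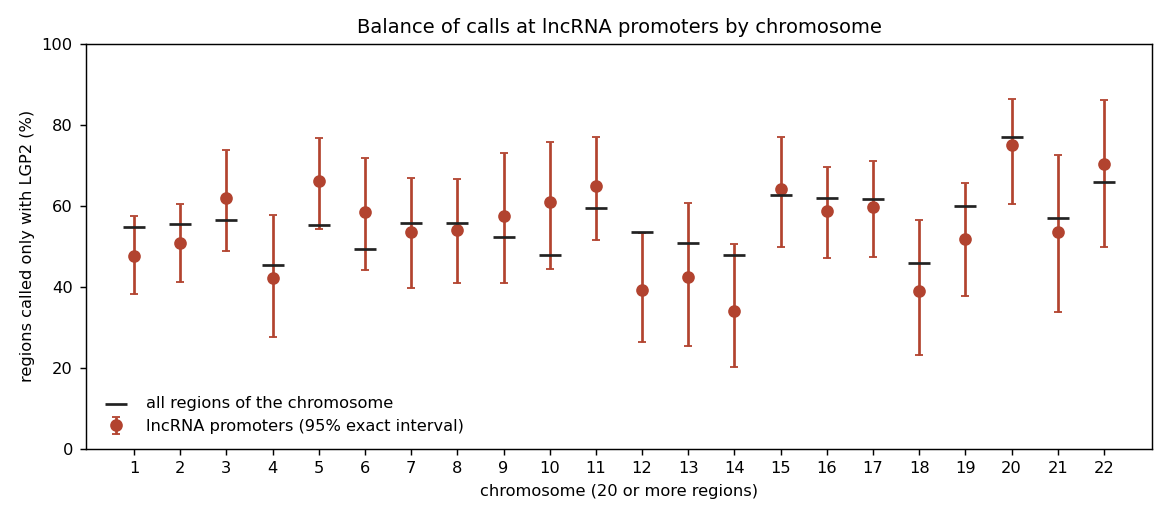
Share of regions called only with LGP2 among lncRNA promoter regions called in 1 library (y axis, %; red points with exact 95% intervals of counting error) by chromosome (x axis; chromosomes with 20 or more such regions). Black dashes give the share over all regions of the chromosome. Chromosome 20 is highest at 75% and chromosome 14 lowest at 34.1%.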

How the data were processed

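ChIP-seq of T98G cells was analysed from 1 table that the authors deposited. It gives regions called in each ChIP library separately, sorted by the authors by the library or libraries with the call, with the nearest transcript, its type and distance. The authors deposited a normalized read density per library, a signal value, together with a log2 ratio, a mean level and an unadjusted p-value; these 3 comparison columns were not used. The labels name the build mm10; the sources used here do not give the aligner, the region caller or the normalization tool. The input libraries and the RefSeq start windows of chromosome 8 were not used here.

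In all regions (100%) the densities gave whole reads for both libraries (tolerance 0.001) after removal of a straight line in the mean log2 level (intercept 0.105, slope 0.0452), with 1 read added. The 2 kb window was inferred from the scale. The recovery was tested on simulated data, where 100% of 5000 regions gave back their reads. These data were built with the same 2 kb window, 1 added read and a straight line, so the test cannot check these settings. Ratios are log2 of (LGP2 reads + 1) over (vector reads + 1). Because the values are signal and each group had 1 library, no count test was made. Shares have exact Clopper-Pearson intervals and reads exact Poisson intervals (95%). For medians at a bound, 0 reads were set to 3 reads per library. Odds ratios are pooled or stratified by chromosome (statsmodels 0.14.6). Python 3.11.15, pandas 2.3.3, numpy 2.4.6, scipy 1.17.1 and matplotlib 3.10.9 were used.

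The regions and gene lists were chosen with earlier results of these data known. Named genes were the regions called in both libraries, the 10 with the largest ratio in each direction (ties by total reads, then symbol), the 5 genes with most regions, up to 8 regions per gene list by total reads, the 5 regions with most reads and the 5 widest. Alternatives were other numbers of added reads, filters on reads, scalings, distances, 1 region per gene, leaving out chromosome 20, a wider rule for shared regions and genes found in RefSeq.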

Additional observations from a re-analysis of the deposited data

How the results depend on the processing

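A region rests on a median of 5 reads, and no replicate exists. The LGP2-only share of 54.9% kept to its counting interval under 7 of 9 alternatives; it was 50.1% with at least 5 reads in a calling library (169 LGP2-only and 168 vector-only; all regions 48.3%) and 50.6% for genes found in RefSeq (53.3% over all regions of such genes). The 387 regions at least 2-fold higher and the 406 at least 2-fold lower became 35 and 54 of 1258 with 5 reads added (2.78% and 4.29%; all regions 2.4% and 4.33%). Where fewer regions were counted they were 192 and 207 of 769 (total of at least 5 reads; 25% and 26.9%, all regions 23.1% and 26.8%), 27 and 38 of 163 (at least 8; 16.6% and 23.3%, all regions 15.6% and 21.4%), 135 and 148 of 341 (at least 5 in a calling library; 39.6% and 43.4%, all regions 35.7% and 45.4%), 171 and 184 of 557 (within 1 kb; 30.7% and 33%) and 105 and 137 of 390 (in RefSeq; 26.9% and 35.1%, all regions of such genes 27.8% and 33.5%). Scaling by the reads each library had where only the other made a call gave 480 higher and 235 lower (38.2% and 18.7%; all regions 38.4% and 19.6%), and the deposited normalized values gave 387 and 309 (30.8% and 24.6%; all regions 29.5% and 25.2%). The median log2 ratio of 0 became 0.48 under that scaling, 0.15 with deposited values and -0.19 with at least 5 reads in a calling library. The promoter share of lncRNA regions was 6.7% (LGP2-only) and 6.48% (vector-only) when only 1 kb counted as promoter, and 17% of LGP2-only regions with at least 5 reads in a calling library. Under this filter on reads, 38.7% of vector-only and 47.3% of LGP2-only lncRNA promoter regions lay within 1 kb of a start, against 43.8% and 44.8% without it. Beyond these constructions the causes were not tested. Of 400 values of 80 named regions under 5 alternatives, 335 kept to their counting interval and 65 moved. The 335 include the values of all 80 regions under scaling by the median ratio. That ratio was 0 (log2), so this alternative left every value unchanged and is no check. The sign changed for 4 of them, none past 2-fold, all under the scaling by reads where only the other library made a call: LINC00051 (-0.19 to 0.29), ROR1-AS1 (-0.42 to 0.07), MIR99AHG (-0.32 to 0.16) and DSCAM-IT1 (-0.42 to 0.07). Regions covering a start, added after the data had been seen, gave 56.2%. No paired analysis was possible because each group had 1 library.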
